A study of Mus musculus with 12 samples.

Results

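Genes that encode receptors for acetylcholine are described here across the hippocampus and the prefrontal cortex (PFC) of mice whose abdomen had been irradiated. They are the rows with the symbols Chrm1, Chrm2, Chrm3 and Chrm4 (muscarinic) and Chrna3, Chrna4, Chrna5, Chrna7, Chrnb2 and Chrnb4 (nicotinic) and make up 10 of 23183 symbols. RNA-seq libraries were made from both regions of 6 male C57BL/6 mice, an inbred strain. In 3 mice the abdomen received X-rays, with 13 Gy in the library names, and 3 mice were not irradiated. This gives 4 groups of 3 libraries: hippocampus control, hippocampus irradiated, PFC control and PFC irradiated. All animals were wild type with standard chow and specific pathogen-free housing. The beam was aimed at the abdomen as a model of lasting gut injury. The sources used here give neither the age of the mice nor the time from irradiation to sampling. Tissue of each region was sequenced as a whole, so a lower level can come from fewer cells of a type or from less RNA per cell, and these cannot be told apart.

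Acetylcholine reaches the hippocampus and the cortex mainly through long axons of neurons in the basal forebrain. Muscarinic receptors are single-protein receptors that act through G proteins: Chrm1 and Chrm3 couple to Gq, which activates phospholipase C, and Chrm2 and Chrm4 couple to Gi, which inhibits adenylate cyclase. Nicotinic receptors are ion channels made of 5 subunits. Chrna4 and Chrnb2 form the main high-affinity channel of the forebrain, Chrna5 joins it as an accessory subunit, Chrna7 can form a channel by itself, and Chrna3 with Chrnb4 is typical of autonomic ganglia and the medial habenula.

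In mm10 with GENCODE M21, 3 of the nicotinic genes lie side by side on chromosome 9: Chrna5 (54980880 to 55007779, plus strand), Chrna3 (55010111 to 55026562, minus strand) and Chrnb4 (55028154 to 55048779, minus strand). Chrm4 (91927249 to 91928688, plus strand) and Chrna4 (181018380 to 181043546, minus strand) are on chromosome 2, and Chrna7 (63098692 to 63212569, minus strand) is on chromosome 7. Chrm1 is on chromosome 19 (8663789 to 8683587, plus strand), Chrm2 on chromosome 6 (36388084 to 36528414, plus strand), Chrm3 on chromosome 13 (9875486 to 10360847, minus strand) and Chrnb2 on chromosome 3 (89746195 to 89764632, minus strand). Exons of Chrnb2 share bases with Adar, an RNA-editing enzyme gene on the opposite strand, and exons of Chrm2 share bases with the antisense lincRNA 9330158H04Rik. The library kit marks strand, but the sources used here do not say whether counting used it, so both levels are uncertain to that extent.

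The sequences before the transcript start are shown for the 3 genes with the region differences that held under every alternative setting tried, and for Chrnb2, whose regional means lay closest together. They come from RefSeq (GRCm38.p6, the assembly of mm10), run 5′ to 3′ on the gene's strand, and leave out bases that are annotated as the gene's own exons. Capitals mark the GC box, a short element that binds Sp-family factors, searched as GGGCGG and its complement CCGCCC.
Chrm4, chr2:91921939-91922188, plus strand: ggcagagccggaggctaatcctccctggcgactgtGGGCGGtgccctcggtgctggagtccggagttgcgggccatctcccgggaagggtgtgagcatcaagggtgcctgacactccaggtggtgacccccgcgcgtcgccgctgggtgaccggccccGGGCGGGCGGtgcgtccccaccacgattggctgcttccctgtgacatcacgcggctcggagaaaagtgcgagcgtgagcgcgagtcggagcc
Chrna4, chr2:181039306-181039427, minus strand: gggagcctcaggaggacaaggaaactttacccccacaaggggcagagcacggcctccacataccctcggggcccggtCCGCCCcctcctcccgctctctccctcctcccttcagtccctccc
Chrna7, chr7:63212570-63212776, minus strand: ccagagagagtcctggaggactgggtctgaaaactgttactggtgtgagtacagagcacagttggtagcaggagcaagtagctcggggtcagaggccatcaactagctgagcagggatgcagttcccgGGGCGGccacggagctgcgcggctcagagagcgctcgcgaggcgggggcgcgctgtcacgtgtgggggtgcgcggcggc
Chrnb2, chr3:89764633-89764882, minus strand: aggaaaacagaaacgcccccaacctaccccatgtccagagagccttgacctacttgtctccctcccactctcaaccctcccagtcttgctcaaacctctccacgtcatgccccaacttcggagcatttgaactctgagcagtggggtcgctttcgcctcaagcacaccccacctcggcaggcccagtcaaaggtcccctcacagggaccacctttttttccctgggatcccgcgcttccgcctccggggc
The Chrm4 stretch holds 3 GC boxes, of which 2 overlap, and ends upstream of the GENCODE gene model. The Chrna4 and Chrna7 stretches hold 1 each, and that of Chrnb2 holds none. The Chrna4 stretch is the part outside its exons and lies inside the GENCODE gene model, which starts further upstream. Over all 250 bases before the RefSeq start, Chrm4 and Chrna4 hold 3 GC boxes each, Chrna7 holds 1 and Chrnb2 none, and 32.7% of 32851 mouse promoters hold at least 1 GC box. A match describes letters only and was not tested as a binding site.

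The sums of the deposited values ran from 381417 to 435534 per library, and 12640 to 12967 genes reached 1 FPKM (fragments per kilobase of a gene's transcript, scaled to the library's mapped fragments). The files give no counts. Estimated depth was similar, between 15.7 and 18.9 M (mega) fragments. The region labels were checked with marker lists in control mice, where 15.7% of all genes were called (as defined below) higher and 14.6% lower in the hippocampus. Of 10 hippocampal subfield genes 7 were higher and 1 lower. All 8 of 8 cortical layer 6 genes were lower, and of 8 genes of cortical layers 2 to 5, 5 were lower and 1 higher. Some members reached the mean needed for a test only through the region where they are high, such as C1ql2 through the hippocampus and Foxp2 and Nxph4 through the PFC. The direction of such members was set by the filter. The hippocampal libraries differed in choroid plexus tissue, the fluid-secreting epithelium of the ventricles. Its 8 markers summed to 3724 to 6631 FPKM in 5 of them and to 125.5 FPKM in irradiated mouse 2. Differences below are log2 differences of FPKM + 1 with their SE, tested with limma-trend over all genes whose mean reached 1 FPKM and adjusted by Benjamini-Hochberg. This scale understates changes of genes near 1 FPKM. A gene is called where its adjusted p is under 0.05.

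Chrm1, the main postsynaptic muscarinic receptor of forebrain principal neurons, had the highest level of the 10 genes in all 12 libraries. Its FPKM in mice 1, 2 and 3 were 39.13, 39.37 and 41.97 in hippocampus control, 39.90, 45.19 and 40.25 in hippocampus irradiated, 38.93, 36.54 and 35.71 in PFC control, and 35.68, 41.51 and 39.15 in PFC irradiated. It varied little, with a coefficient of variation of 6.9% over the 12 libraries, and its mean ranked 2064 among the 23183 symbols. Chrnb2, the beta subunit shared by most forebrain nicotinic channels, varied least, with a coefficient of 5.93%. Its group means were 12.5 ± 1.35 and 13.5 ± 0.383 FPKM in control and irradiated hippocampus and 12.8 ± 0.486 and 13.4 ± 0.274 FPKM in control and irradiated PFC (SD, n = 3).

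The order of the other genes differed by region, on the per-length FPKM scale. In control hippocampus Chrm3 (13.6 ± 1.56 FPKM), Chrnb2 and Chrna7 (12.1 ± 2.79) followed Chrm1, with overlapping ranges. Chrm4 (7.98 ± 0.971) and Chrna4 (5.65 ± 1.01) came next without overlap, then Chrm2 (1.66 ± 0.419) and Chrna5 (1.45 ± 0.129), whose ranges overlapped. In control PFC the order was Chrm1, Chrm4 (18.3 ± 0.326), Chrm3 (16.9 ± 1.13), Chrnb2, Chrna4 (10.6 ± 1.22), Chrna7 (6.68 ± 1.76), Chrm2 (3.54 ± 1.20) and Chrna5 (1.24 ± 0.235), and no neighbours overlapped. Irradiated mice had the same order in each region down to Chrna5. In their hippocampus the ranges of Chrnb2 and Chrna7 and of Chrm4 and Chrna4 overlapped, and in their PFC those of Chrm4 and Chrm3 and of Chrnb2 and Chrna4. Chrna3 and Chrnb4 were last, with at most 0.439 FPKM for Chrna3 and 0.447 FPKM for Chrnb4 in any library.

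**Figure D1:**
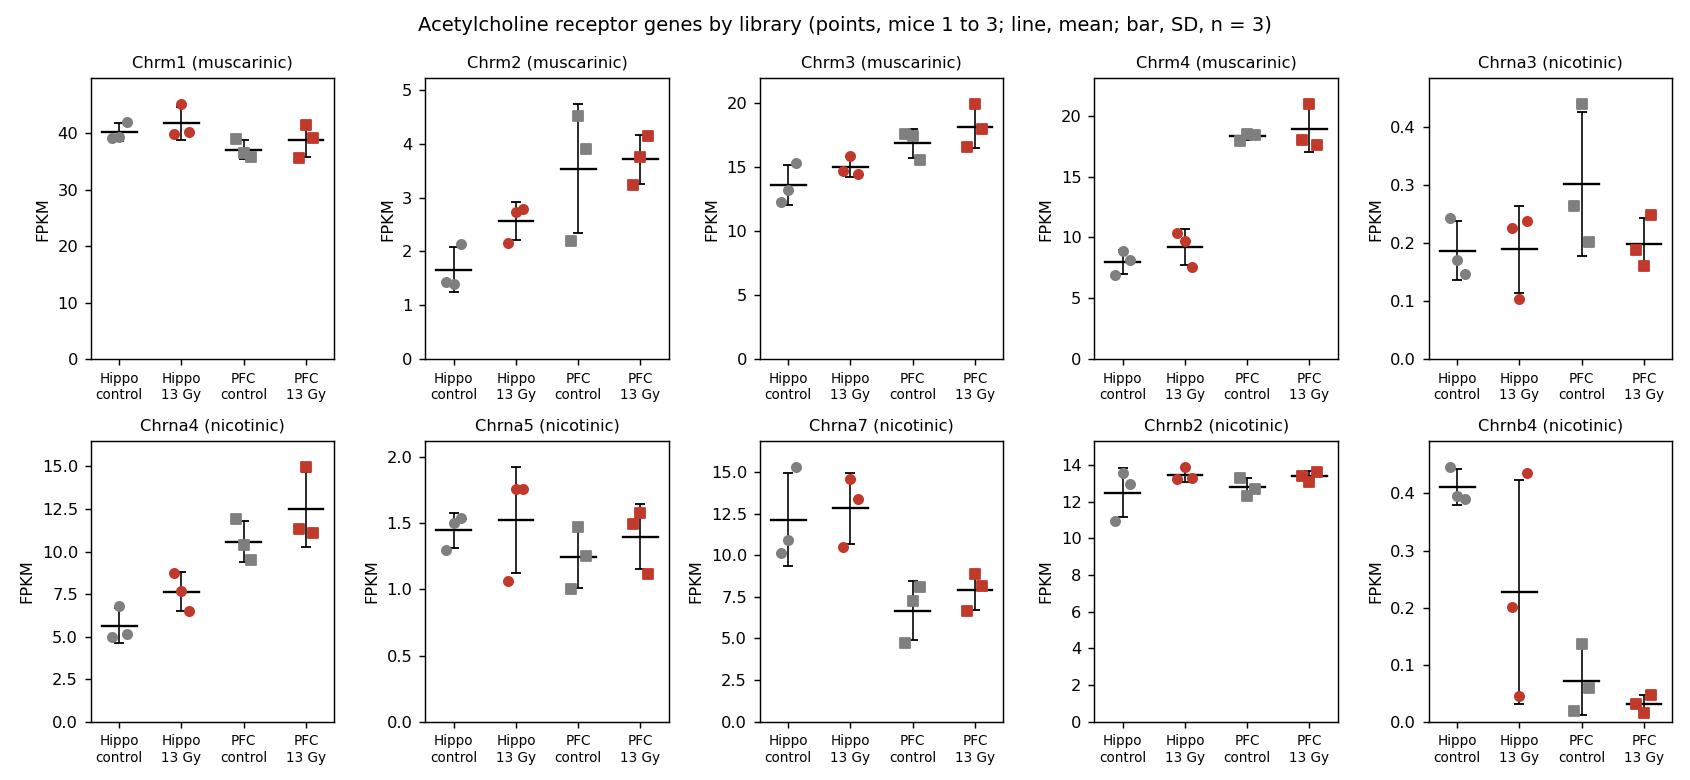
FPKM of each receptor gene (vertical axes, from 0, 1 panel per gene) in the 4 groups; points are mice 1 to 3, lines are means and bars are SD (n = 3; grey control, red irradiated; circles hippocampus, squares PFC). Chrm4 and Chrna4 sit higher in all PFC libraries, Chrna7 higher in all hippocampal libraries, and Chrm1 and Chrnb2 lie at similar levels in all 4 groups.

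Summed over genes, muscarinic receptor RNA exceeded nicotinic receptor RNA in every library, and by more in the PFC. The 4 muscarinic genes summed to 63.4 ± 3.93 FPKM in control hippocampus against 75.8 ± 1.85 FPKM in control PFC (SD, n = 3), whereas the 6 nicotinic genes summed to 32.3 ± 3.81 and 31.7 ± 0.403 FPKM. The muscarinic to nicotinic ratio was 2.13, 1.88 and 1.90 in control hippocampus and 2.46, 2.41 and 2.31 in control PFC. In irradiated mice it was 1.98, 1.93 and 1.83 in the hippocampus and 2.22, 2.23 and 2.30 in the PFC. All 6 PFC ratios lay above all 6 hippocampal ones. Control and irradiated libraries overlapped in the hippocampus, whereas the irradiated PFC libraries lay below the control ones. With the ratio of geometric means of FPKM + 1 the regional order stayed and the PFC groups were alike, at 2.66 in control and 2.93 in irradiated hippocampus and 3.94 in both PFC groups. No test was made on sums over the chosen genes. A nicotinic channel takes 5 subunits, so a ratio of RNA is not a ratio of receptors.

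The makeup inside both families differed by region as well. The Gi-coupled genes Chrm2 and Chrm4 made up 15.2% ± 1.15 of muscarinic FPKM in control hippocampus and 28.8% ± 2.26 in control PFC (SD, n = 3), and 17.2% ± 1.38 and 28.4% ± 0.704 in irradiated mice. Chrna7 stood at 2.20 ± 0.702 times Chrna4 in control hippocampus and at 0.648 ± 0.232 times in control PFC. In irradiated mice this ratio was 1.72 ± 0.460 and 0.637 ± 0.0859. It was above 1 in all 6 hippocampal libraries, at 1.19 or more, and below 1 in all 6 PFC libraries, at 0.852 or less.

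**Figure D2:**
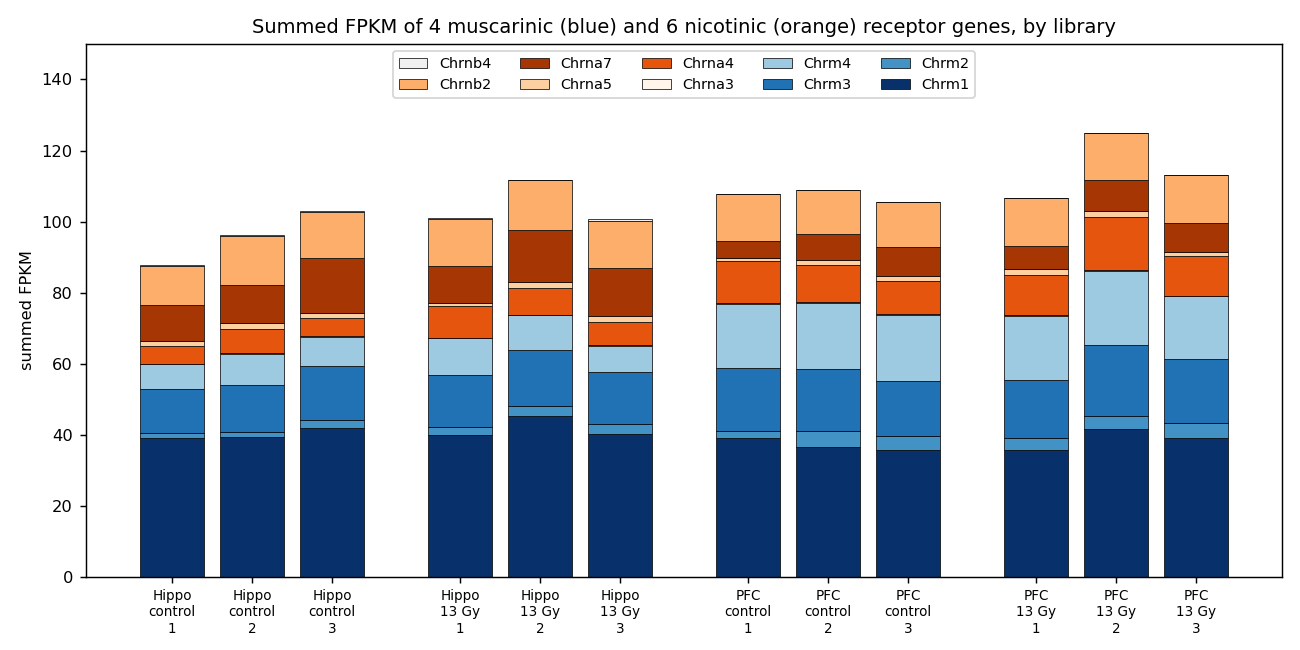
Stacked FPKM (vertical axis) of the 4 muscarinic genes (blue) and the 6 nicotinic genes (orange) in each of the 12 libraries. Chrm1 is the deepest blue segment at the base of every bar, Chrm4 (light blue) is taller in the PFC bars, and Chrna7 (dark orange) is taller in the hippocampal bars; Chrna3 and Chrnb4 are too low to be seen.

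Hippocampus and PFC were then compared gene by gene, in control and in irradiated mice separately. The mean of 1 FPKM needed for a test was reached by 8 receptor genes. In control mice 5 of 8 were called, against 30.3% of all 12923 genes: Chrm2, Chrm3, Chrm4 and Chrna4 lower in the hippocampus (lower calls over all genes were 14.6%) and Chrna7 higher (15.7%). In irradiated mice the same 5 genes were called in the same directions, against 29.2% of 12878 genes, with 15.3% of genes lower and 13.9% higher. Hippocampal libraries were all above or all below the PFC libraries for 6 of 8 in control mice, Chrm1 being the sixth, and for 5 of 8 in irradiated mice, against 45.7% and 44.8% of all genes. Pan-neuronal markers moved with region too: their sum was 2603 to 2791 FPKM in hippocampal and 3211 to 3422 FPKM in PFC libraries, and 5 of 8 were called lower and 1 higher in control hippocampus. The part of neuron content in the receptor differences was not tested.

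Chrm4, the Gi-coupled muscarinic receptor best known from projection neurons of the striatum, had the largest difference of the tested receptor genes. It stood at 6.933, 8.851 and 8.152 FPKM in control hippocampus against 17.93, 18.53 and 18.46 FPKM in control PFC. In irradiated mice it stood at 10.35, 9.712 and 7.559 FPKM against 18.01, 20.98 and 17.63 FPKM. No hippocampal library reached a PFC library. The log2 difference, hippocampus minus PFC, was -1.11 ± 0.09 in control mice (2.29 times as high in the PFC by mean FPKM, limma adjusted p = 2e-05) and -0.97 ± 0.12 in irradiated mice (2.05 times, limma adjusted p = 0.000621). Markers of striatal projection neurons moved with it: all 10 were called lower in the hippocampus of both treatments, and their sum was 107.1 to 126.2 FPKM in control and 75.3 to 117.2 FPKM in irradiated hippocampus against 775.6 to 1012 and 803.8 to 867.2 FPKM in PFC. Of these, Ppp1r1b and Penk were the most abundant, and none was at 0. Members such as Adora2a and Gpr6, with means under 1 FPKM in the hippocampus, passed the filter only through the PFC. Such members could only come out lower in the hippocampus. The part of striatal tissue in the regional difference was not tested.

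**Figure D3:**
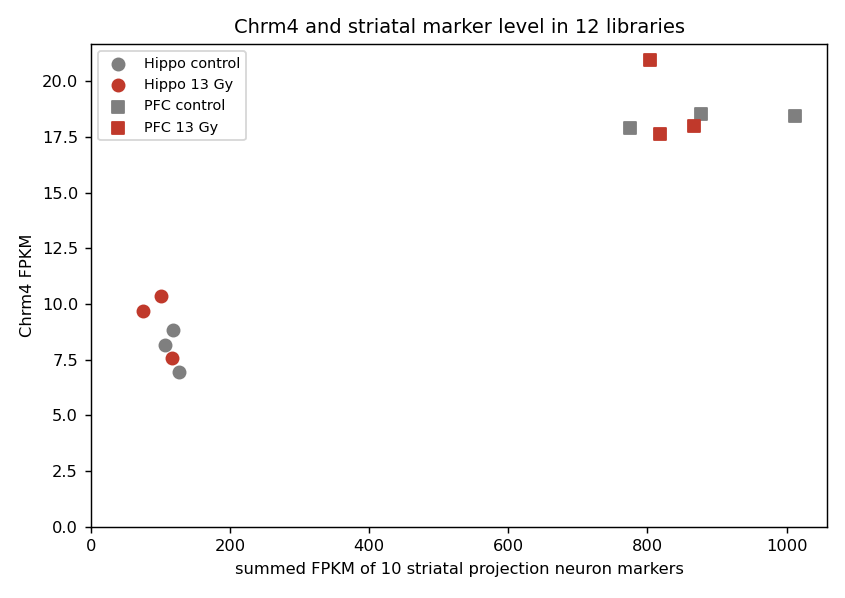
Chrm4 FPKM (vertical axis) against the summed FPKM of 10 striatal projection neuron markers (horizontal axis), 1 point per library (circles hippocampus, squares PFC; grey control, red irradiated). The regions form separate clouds, with Chrm4 at 6.933 to 10.35 FPKM in hippocampus and 17.63 to 20.98 FPKM in PFC.

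Chrm3, the other Gq-coupled receptor, differed less. It measured 12.24, 13.19 and 15.28 FPKM in control hippocampus against 17.62, 17.41 and 15.57 FPKM in control PFC. The groups did not overlap, but hippocampus control 3 and PFC control 3 were close to each other. The log2 difference was -0.30 ± 0.09 (limma adjusted p = 0.0366) in control and -0.26 ± 0.08 (limma adjusted p = 0.0410) in irradiated mice, where means were 15.0 ± 0.772 and 18.2 ± 1.69 FPKM (SD, n = 3). These calls were not firm: in control mice the adjusted p was 0.131, 0.115, 0.0806 and 0.103 without hippocampus control 1, hippocampus control 2, PFC control 1 and PFC control 2, and 0.0579 with no filter on low values. In irradiated mice it was 0.120, 0.118, 0.0925 and 0.0927 without hippocampus irradiated 1 and 3 and PFC irradiated 2 and 3, 0.0585 with no filter and 0.0746 with libraries scaled to equal totals.

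Chrm2, a Gi-coupled receptor that often sits on cholinergic terminals and interneurons, was the least abundant muscarinic member. It measured 1.440, 1.395 and 2.142 FPKM in control hippocampus against 2.198, 4.515 and 3.903 FPKM in control PFC. In irradiated mice it measured 2.156, 2.739 and 2.789 FPKM against 3.237, 3.747 and 4.146 FPKM. The groups did not overlap in either treatment, although PFC control 1 lay just above hippocampus control 3. The log2 difference was -0.75 ± 0.20 (limma adjusted p = 0.0194) in control mice and -0.40 ± 0.11 (limma adjusted p = 0.0286) in irradiated mice. The first call was lost without hippocampus control 1 (adjusted p 0.0674), hippocampus control 2 (0.0707), PFC control 2 (0.0614) or PFC control 3 (0.0617). The second was lost without hippocampus irradiated 1 (0.0936), PFC irradiated 2 (0.0717) or PFC irradiated 3 (0.0949), with no filter on low values (0.0552) and in 1 fit over all 12 libraries (0.108). PFC control 1, the lowest PFC library for Chrm2, was also lowest among PFC control libraries for the summed markers of basal forebrain cholinergic neurons, at 8.944 FPKM against 16.32 and 17.04 FPKM. In the irradiated PFC these sums were 8.956, 7.499 and 14.37 FPKM and in hippocampal libraries 1.820 to 2.852 FPKM, with Lhx8 and Gbx1 at 0 in at least 1 library of each hippocampal group, and their part in the difference was not tested.

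Chrm1 measured 40.2 ± 1.58 FPKM in control hippocampus against 37.1 ± 1.67 FPKM in control PFC (SD, n = 3). It was not called in either treatment, although the hippocampus was the higher region in 6 of 6 mice, at 1.01 to 1.18 times the PFC. The log2 difference was 0.11 ± 0.06 (95% interval -0.03 to 0.26, limma adjusted p = 0.218) in control and 0.11 ± 0.08 (-0.07 to 0.28, limma adjusted p = 0.349) in irradiated mice.

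Among the nicotinic subunits, Chrna4 and Chrna7 differed in opposite directions. Chrna4 measured 4.992, 6.822 and 5.150 FPKM in control hippocampus against 11.91, 10.36 and 9.504 FPKM in control PFC. In irradiated mice it measured 8.764, 7.682 and 6.485 FPKM against 11.35, 14.99 and 11.08 FPKM. All 6 PFC libraries were above all 6 hippocampal ones. The log2 difference was -0.81 ± 0.12 (limma adjusted p = 0.000912) in control and -0.64 ± 0.13 (limma adjusted p = 0.00909) in irradiated mice. The mean in the PFC was 1.87 and 1.63 times that of the hippocampus.

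Chrna7 measured 10.14, 10.94 and 15.32 FPKM in control hippocampus against 4.707, 7.224 and 8.096 FPKM in control PFC. In irradiated mice it measured 10.47, 14.60 and 13.35 FPKM against 6.628, 8.873 and 8.159 FPKM. Here every hippocampal library exceeded every PFC library. The log2 difference was 0.78 ± 0.19 (1.82 times as high in the hippocampus, limma adjusted p = 0.0122) in control and 0.63 ± 0.13 (1.62 times, limma adjusted p = 0.00973) in irradiated mice. Within single mice the hippocampal level was 1.51 to 2.15 times the PFC level for Chrna7, 0.419 to 0.772 times for Chrna4 and 0.387 to 0.575 times for Chrm4. Each lay on the same side in 6 of 6 mice, as 45.6% of 12894 genes did.

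Chrnb2, the partner of Chrna4, was not called. Its log2 difference was -0.03 ± 0.09 (95% interval -0.23 to 0.16, limma adjusted p = 0.812) in control and 0.01 ± 0.06 (-0.12 to 0.14, limma adjusted p = 0.925) in irradiated mice, and the PFC was the higher region in 3 of 6 mice. Adar, which shares exon bases with it, measured 23.4 ± 0.717 FPKM in control hippocampus against 31.2 ± 0.668 FPKM in control PFC (SD, n = 3). Chrna5 was not called either, at 0.13 ± 0.11 (-0.13 to 0.38, limma adjusted p = 0.443) in control and 0.07 ± 0.15 (-0.27 to 0.41, limma adjusted p = 0.780) in irradiated mice.

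**Figure D4:**
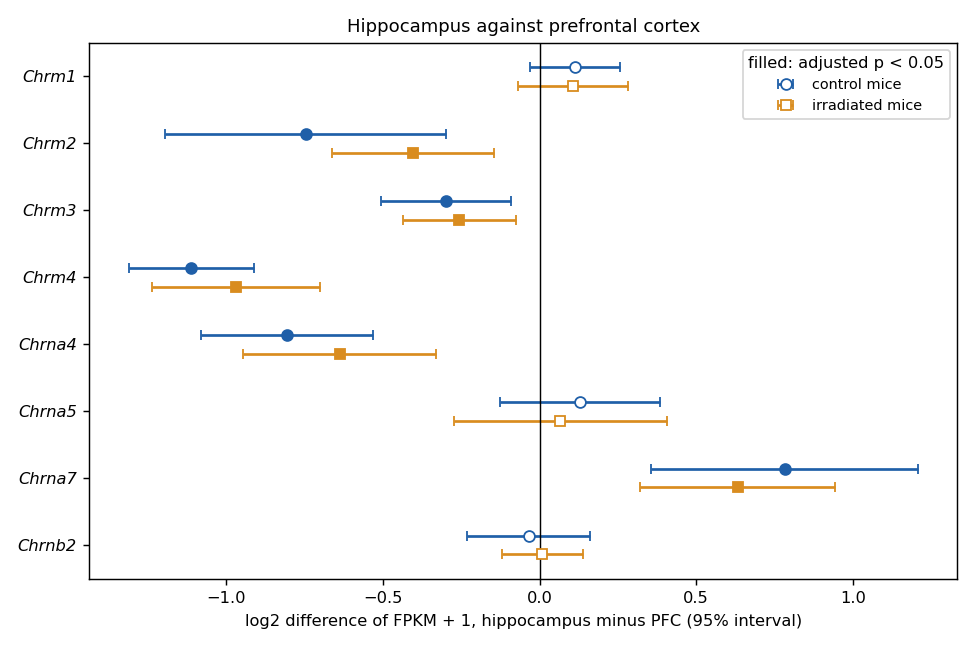
log2 difference of FPKM + 1, hippocampus minus PFC (horizontal axis), for the 8 tested receptor genes in control (blue circles) and irradiated mice (orange squares); bars are 95% intervals from limma and filled symbols have an adjusted p under 0.05. Chrm2, Chrm3, Chrm4 and Chrna4 lie left of 0 and Chrna7 right of it in both treatments.

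Chrna3 and Chrnb4 did not pass the filter on low values. For these genes the values are whole multiples of what 1 fragment is worth, which gave whole fragments in all 12 libraries within a tolerance of 0.15. Chrnb4 had 29, 26 and 24 fragments in control hippocampus, 13, 3 and 29 in irradiated hippocampus, 1, 8 and 4 in control PFC and 2, 1 and 3 in irradiated PFC. The control hippocampal libraries were alike and above all PFC libraries, whereas the irradiated hippocampal libraries spread from PFC-like to control-like counts. With no filter, limma called Chrnb4 higher in control hippocampus (0.40 ± 0.05, adjusted p = 0.00178, where 22.3% of genes were called) and not in irradiated mice (0.24 ± 0.11, adjusted p = 0.175, 20.0%). Irradiated mouse 2, with 3 fragments, also had the choroid plexus sum of 125.5 FPKM. The 6 habenula markers summed to 13.24 to 14.21 FPKM in control and 15.56 to 15.84 FPKM in irradiated hippocampus. In the PFC their sum was 25.67 to 34.53 FPKM, with Tac2, Nwd2 and Lrrc55 the most abundant. Of 4 tested, 3 were called lower in control hippocampus, beside 14.6% of all genes. Pou4f1 was at 0 in irradiated mouse 3, the library with 29 fragments of Chrnb4. Gpr151, too low to be tested, measured 0.4961, 0.2813 and 0.7662 FPKM in irradiated and 0.4269, 0.4919 and 0.5673 FPKM in control hippocampus. It ranked the irradiated mice as Chrnb4 did and the control mice in the reverse order. The part of choroid or habenula tissue in the Chrnb4 values was not tested.

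Chrna3 had 14, 10 and 8 fragments in control hippocampus, 13, 6 and 14 in irradiated hippocampus, 13, 23 and 12 in control PFC and 11, 9 and 14 in irradiated PFC. These ranges overlapped between all 4 groups. With no filter, limma did not call Chrna3 between the regions of control mice (-0.13 ± 0.07, 95% interval -0.30 to 0.04, adjusted p = 0.275), in contrast to its neighbour Chrnb4, though the genes' differences were not compared by a test.

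Irradiated and control mice were compared within each region, the question of the study's design. In the hippocampus limma called 0 of 8 tested receptor genes, against 0.0% of 12947 genes. At an unadjusted p under 0.05 there were 2 of 8, Chrm2 and Chrna4, against 10.5% of all genes. The log2 difference of Chrm2 was 0.43 ± 0.14 (95% interval 0.12 to 0.74, limma adjusted p = 0.475) at 1.54 times the control mean. Its irradiated libraries (2.156, 2.739 and 2.789 FPKM) lay above all control libraries (1.440, 1.395 and 2.142 FPKM), by a margin that was narrow between irradiated 1 and control 3. Chrm2 was the 1 gene of 8 without overlap, against 15.6% of genes. That of Chrna4 was 0.38 ± 0.13 (0.07 to 0.68, limma adjusted p = 0.475) at 1.35 times, and its groups overlapped, with irradiated 3 at 6.485 FPKM below control 2 at 6.822 FPKM.

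Summed markers of other cells and tissues did not overlap between the hippocampal groups for 5 of 14 lists. Of single genes 15.6% did not overlap, but a sum over a list spreads otherwise than a single gene, so the shares cannot be compared. The sums of layer 6, endothelium and habenula were higher and those of myelin and inhibitory interneurons lower in irradiated mice. Lists with overlapping sums also held genes at an unadjusted limma p under 0.05. These were 3 of 6 thalamus genes (4 of 6 positive) and 3 of 10 hippocampal subfield genes (3 of 10 positive), among others, with 0 called. Over all tested genes 47.0% had positive differences and 10.5% an unadjusted limma p under 0.05. Cortical layer 6 markers summed to 54.77, 49.85 and 47.36 FPKM in irradiated and 36.68, 41.42 and 35.98 FPKM in control libraries. Of this list 7 of 7 tested genes had positive differences, 4 had an unadjusted limma p under 0.05 and 0 were called. Endothelial markers summed to 54.92, 62.06 and 59.33 FPKM against 27.28, 37.48 and 37.51 FPKM, with 6 of 6 positive, 5 at an unadjusted limma p under 0.05 and 0 called. Myelin markers went the other way, at 2002, 1987 and 2111 FPKM against 2558, 2678 and 2170 FPKM, with 0 of 6 positive, 3 at an unadjusted limma p under 0.05 and 0 called. The habenula and interneuron sums were 15.56 to 15.84 against 13.24 to 14.21 FPKM and 1253 to 1291 against 1292 to 1311 FPKM. Of the habenula genes 3 of 4 tested had positive differences. The interneuron list was split, with 5 of 10 positive, 1 at an unadjusted limma p under 0.05 and 0 called. Its most abundant gene, Cck, measured 545.0 against 560.0 FPKM, whereas Gad1 measured 111.0 against 102.0 FPKM. Both Chrm2 and Chrna4 have higher levels in the PFC, and the part of these cells and tissues in their hippocampal differences was not tested.

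The other tested genes overlapped between irradiated and control hippocampus. Chrm1 differed by 0.05 ± 0.06 (95% interval -0.09 to 0.20, limma adjusted p = 0.742) and Chrnb2 by 0.11 ± 0.08 (-0.08 to 0.29, limma adjusted p = 0.608). Chrm3 differed by 0.14 ± 0.09, Chrm4 by 0.18 ± 0.12, Chrna7 by 0.08 ± 0.16 and Chrna5 by 0.03 ± 0.14, with limma adjusted p from 0.547 to 0.934. All 8 estimates were above 0, as were 47.0% over all genes. With libraries scaled to equal totals it was again 8 of 8, but against 71.0% of all genes. Without that scaling, the count of 8 fell to 5 without irradiated mouse 2 (Chrm1, Chrna5 and Chrna7 below 0), to 7 without irradiated mouse 3 and to 6 without control mouse 1. With no filter on low values 9 of 10 estimates were above 0, against 47.8% of all genes. Chrnb4 was the 1 below, at -0.21 ± 0.11 (limma adjusted p = 0.595).

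In the PFC limma called 0 of 8 receptor genes, against 0.00786% of 12729 genes (1 gene), and 0 of 8 at an unadjusted p under 0.05, against 7.23%. The estimates ran from 0.04 ± 0.08 for Chrm4 (95% interval -0.14 to 0.22, limma adjusted p = 0.937) to 0.23 ± 0.17 for Chrna7 (-0.15 to 0.61, limma adjusted p = 0.821). Chrna4 differed by 0.21 ± 0.12 (-0.07 to 0.49, limma adjusted p = 0.779) and Chrm2 by 0.09 ± 0.18 (-0.33 to 0.50, limma adjusted p = 0.937). The groups did not overlap for 0 of 8, against 13.7% of genes. All 8 estimates were above 0, as were 51.2% over all genes, or 71.6% with libraries scaled to equal totals, and 7 were without irradiated mouse 2 or without control mouse 1. With no filter on low values 8 of 10 were above 0, against 49.0% of all genes. Below 0 were Chrna3 (-0.11 ± 0.07, limma adjusted p = 0.83) and Chrnb4 (-0.05 ± 0.05, limma adjusted p = 0.862). Same-numbered irradiated and control PFC libraries come from different animals. Their deviations from the group means correlated weakly, at 0.14, 0.12 and 0.12. With the number as a block 0 of 8 were called, and 1 of 8 had an unadjusted p under 0.05, against 9.4% of genes: Chrna7, at 0.23 (limma adjusted p = 0.524). Marker sums did not overlap for 2 of 14 lists, which again cannot be compared with the 13.7% of single genes. Endothelial markers summed to 62.33, 66.58 and 72.6 FPKM in irradiated and 52.64, 55.8 and 55.54 FPKM in control PFC. Myelin markers summed to 1527, 1383 and 1462 FPKM against 1629, 1744 and 1776 FPKM, with 0 of 6 positive, 4 at an unadjusted limma p under 0.05 and 0 called. Their part in the receptor estimates was not tested.

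The irradiation effect was also compared between the regions over all 12 libraries. It differed for 0 of 8 receptor genes, against 0.0% of 12894 genes, and for 0 at an unadjusted p under 0.05, against 3.27%. For Chrm2 the hippocampal effect exceeded the PFC effect by 0.34 ± 0.25 (95% interval -0.21 to 0.89, limma adjusted p = 1.0), and for Chrna7 this difference was -0.15 ± 0.26 (-0.72 to 0.42).

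**Figure D5:**
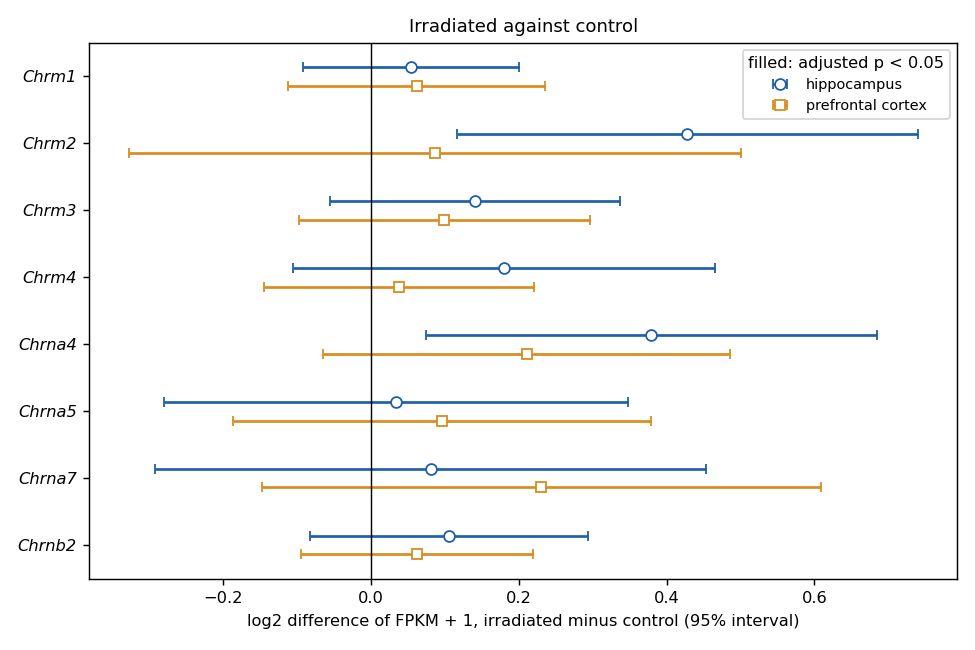
log2 difference of FPKM + 1, irradiated minus control (horizontal axis), for the 8 tested receptor genes in hippocampus (blue circles) and PFC (orange squares); bars are 95% intervals from limma, and no symbol is filled because no adjusted p is under 0.05. Only the hippocampal intervals of Chrm2 (0.12 to 0.74) and Chrna4 (0.07 to 0.68) leave out 0.

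Genes that make, move and break down acetylcholine were compared between the regions next. Of 8 listed genes 6 were tested in control mice, and 3 were lower and 1 higher in the hippocampus, beside 14.6% and 15.7% of all genes. Chat, which synthesises acetylcholine, measured 0.0649 ± 0.0610 FPKM in control hippocampus against 2.33 ± 0.846 FPKM in control PFC (SD, n = 3; log2 difference -1.61 ± 0.18, limma adjusted p = 0.000164). Slc5a7, the choline transporter of cholinergic terminals, measured 0.209 ± 0.0293 against 2.63 ± 1.12 FPKM (-1.53 ± 0.22, limma adjusted p = 0.000596). Chat and Slc5a7 reached the mean of 1 FPKM only through the PFC, so once tested they could only come out lower in the hippocampus. Their place in the count of lower genes was thus set by the filter. Prima1, which anchors acetylcholinesterase in the membrane, was lower, at -0.97 ± 0.25 (limma adjusted p = 0.0168), and Slc44a1, a general choline transporter, was higher, at 0.44 ± 0.07 (limma adjusted p = 0.00163). In irradiated mice 4 were tested, with Slc5a7 and Prima1 lower and Slc44a1 higher, beside 15.3% and 13.9% of all genes. Slc5a7 again passed the filter only through the PFC. Chat was not tested there, since its means of 0.0572 FPKM in hippocampus and 1.51 FPKM in PFC fell short of the filter. Between treatments, Ache, the degrading enzyme, was not called in the hippocampus (0.15 ± 0.06, limma adjusted p = 0.475). It measured 24.6 ± 1.21 FPKM in control and 27.4 ± 0.897 FPKM in irradiated libraries. These groups did not overlap, as was so for 15.6% of all genes.

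Of 12 chaperones and Ly6-type modulators of nicotinic receptors 11 were tested in control mice, and 3 were lower and 1 higher in the hippocampus. These 4 of 11 stand beside 30.3% of all genes called, a similar share. Lypd6b, a Ly6-type modulator, measured 2.924, 3.511 and 2.371 FPKM in control hippocampus against 5.832, 5.795 and 5.501 FPKM in control PFC (-0.78 ± 0.11, limma adjusted p = 0.000721). Its relative Lypd6 was lower, at -0.35 ± 0.09 (limma adjusted p = 0.0127), as was Vsnl1, a calcium sensor that binds the Chrna4 subunit, at -0.48 ± 0.07 (limma adjusted p = 0.000593). Ly6h, also of the Ly6 type, was the higher one, at 0.21 ± 0.07 (limma adjusted p = 0.0448). Lynx1, a Ly6-type protein that dampens nicotinic channels, measured 110.0 ± 3.39 and 107.0 ± 12.3 FPKM. In irradiated mice the same 3 were called lower and Lypd1 higher (0.54 ± 0.15, limma adjusted p = 0.0284), beside 29.2% of all genes called. Ly6h kept its direction there, at 0.32 ± 0.12 (limma adjusted p = 0.0819), and was not called. Lypd1 had the same direction in control mice, at 0.16 ± 0.08 (limma adjusted p = 0.18). For neither gene was the irradiation effect called as different between the regions.

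Of 24 genes of muscarinic signalling 23 were tested in control mice, and 9 were lower and 5 higher in the hippocampus, beside 14.6% and 15.7% of all genes. Rgs4, which shortens signals of Gi- and Gq-coupled receptors, measured 47.15, 48.18 and 50.08 FPKM in control hippocampus against 146.0, 142.4 and 145.7 FPKM in control PFC (-1.56 ± 0.06, limma adjusted p = 2.56e-07). Its groups were far apart. The phospholipase Plcb4 was lower (-1.09 ± 0.11, limma adjusted p = 6.83e-05), and so were the inositol trisphosphate receptor Itpr1 (-0.84 ± 0.09, limma adjusted p = 9.52e-05) and Kcnj9, a potassium channel subunit opened by Gi-coupled receptors (-0.84 ± 0.08, limma adjusted p = 6.65e-05). Gnaq, the alpha subunit of Gq, was among the higher genes (0.31 ± 0.07, limma adjusted p = 0.0107). In irradiated mice 10 were lower and 5 higher of 23, beside 15.3% and 13.9% of all genes. Medians of this list were 0.02 in control and -0.06 in irradiated mice, beside 0.01 and 0.00 over all genes. After irradiation limma called 0 genes of these 3 lists in either region. At an unadjusted p under 0.05 there were 1 of 4, 1 of 11 and 2 of 23 in the hippocampus, beside 10.5% of all genes, and 0 in the PFC, beside 7.23%.

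The fifth muscarinic receptor gene, Chrm5, and 10 further nicotinic subunit genes were listed as well. They were low: Chrm5 measured 0.9225 to 1.749 FPKM in control and 0.6240 to 1.934 FPKM in irradiated hippocampus, and 0.03843 to 0.7955 FPKM in the PFC. The regions overlapped, since hippocampus irradiated 1 (0.6240 FPKM) lay below PFC control 3 (0.7955 FPKM) and PFC irradiated 3 (0.7378 FPKM). It was tested in the hippocampus only and was not called for irradiation.

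Genes whose pattern over the 12 libraries was most like that of a receptor were sought among 9169 genes whose mean reached 5 FPKM, by Pearson r of log2(FPKM + 1). The 12 points share 2 regions and 6 mice, so r is given as a description, with r of the deviations from the group means beside it. For Chrm4 these were Plxnd1 and Impdh1 (r 0.99 each, deviations 0.89 each), and for Chrna4 Hivep1 (0.98, deviations 0.85) and Srebf2 (0.97, deviations 0.83). For Chrna7 they were Map4k3 (0.98, deviations 0.94) and Fam13c (0.97, deviations 0.91), and for Chrm2 Gpr137c (0.98, deviations 0.94) and Serinc3 (0.97, deviations 0.93). For Chrm3 they were Apc2 (0.98, deviations 0.93) and Scn2a1 (0.98, deviations 0.94). For the 3 tested genes that were not called between regions the best matches were Atf7 for Chrm1 (0.93, deviations 0.88), Seh1l for Chrna5 (0.88, deviations 0.92) and Ubn1 for Chrnb2 (0.82, deviations 0.77). A region difference enters r over the 12 libraries, so r cannot be compared between called and uncalled genes.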

How the data were processed

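The 12 RNA-seq libraries form 4 groups of 3 mice, all with 1 batch label. Libraries were built from total RNA with a directional NEBNext Ultra II kit, per the labels' protocols, and, per the submitters' processing notes, TopHat aligned the reads to mm10. The sources used here do not name versions, counting tool, annotation or strand setting. The deposited files name no unit. Their values were taken as FPKM made by the authors, because they are not whole, their sums differ, and value times transcript length in kilobases sums to 0.57 to 0.59 M (mega) with the median and 1.20 to 1.25 M with the longest GENCODE M21 transcript. FPKM are relative, so abundant genes move all others. Depth was estimated from the value steps of 1697 genes below 0.3 FPKM.

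Members and lists were chosen with earlier results of these data known. Tests used limma-trend (limma 3.58.1, R 4.3.3) on log2(FPKM + 1), genes whose mean reached 1 FPKM, Benjamini-Hochberg adjustment and two-sided p, in 5 comparisons: irradiated against control in each region, the difference of these effects, and hippocampus against PFC in each treatment. The fit was tested on simulated data. The 10 receptor genes are named whatever their values, and listed pathway genes by smallest p, up to 6 a list. Lynx1, Ache and Chrm5 were named as well, Lynx1 after its values were seen, as was Gnaq. The titles give both regions of a mouse the same number. Deviations from group means correlated at 0.29, -0.01 and 0.05 between the regions of control mice and at 0.17, 0.26 and 0.30 in irradiated mice. Between irradiated and control mice of the same number, which are different animals, the correlations were 0.10, -0.02 and -0.16 in hippocampus and 0.14, 0.12 and 0.12, all above 0.1, in PFC. Main fits have no block for the mouse. Alternatives were no filter, a pseudocount of 0.1, equal totals, median-of-ratios scaling, 1 fit over 12 libraries, robust moderation, a replicate block and leaving out each library. No chance intervals per gene were available from FPKM. The unit allowed no count model. Values of some listed genes are not reported here.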

Additional observations from a re-analysis of the deposited data

How the results depend on the processing

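Chrm4, Chrna4 and Chrna7 stayed called between the regions, with their direction, under all 13 alternatives in both treatments. The number of receptor genes called, 5 in each treatment, ran from 3 to 5 in control and from 3 to 5 in irradiated mice when 1 library was left out, and was 3 in irradiated mice with no filter on low values; the genes lost were Chrm2 and Chrm3. For irradiation and its difference between regions 0 receptor genes were called under any alternative; hippocampal Chrm2 ran from 0.36 to 0.61 (adjusted p 0.234 to 0.922) and Chrna4 from 0.29 to 0.50 (0.217 to 0.922). Over all genes, the 0 calls for irradiation in hippocampus became 4 with equal totals, 1 in the 12-library fit, 3 with robust moderation and 0 to 1 without 1 library. The 1 call in PFC became 2 with no filter, 0 in the 12-library fit and 1 to 4 without 1 library. The 0 calls for the difference became 1 with no filter and 0 to 2 without 1 library. With the replicate block 4326 genes (main 3922) were called between regions in control and 4629 (main 3758) in irradiated mice, 0 and 1 for irradiation in hippocampus and PFC and 0 for their difference, and no receptor gene changed its call. The muscarinic to nicotinic ratio from geometric means was 2.66, 2.93, 3.94 and 3.94 in hippocampus control, hippocampus irradiated, PFC control and PFC irradiated, against 1.97, 1.91, 2.39 and 2.25 from sums. With 3 mice a group, 1 to 29 fragments for Chrnb4 and 6 to 23 for Chrna3, small differences of these genes were not detectable at this depth.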
